A study of Homo sapiens with 12 samples.

Results

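Tumor-initiating cells (TICs) were compared with parental cells in 4 human lung cancer lines, H1703, H1299, CHAGO and CALU, using the 8 libraries of these states among the 12 of the series, with 1 library per line and state. The comparison runs over all genes with enough reads over the 12 libraries, 14008 of the 22506 listed. TICs are the cells of a tumor population that can seed a new tumor, and they are commonly enriched by growth in suspension. Parental cells are labelled adherent and TICs are not, and the growth of the TICs is not given in the sources used here. The remaining 4 libraries, TICs with PRKCI knocked down, were not compared here. They did enter the filter, the scaling, the line terms and the shared estimate of the spread. With the 8 libraries alone, 12990 genes were tested. The lines are the replicates (n = 4). Each standard error and p-value rests on how far the 12 libraries, knockdown ones included, departed from the state and line terms. They do not measure the variation between lines of the TIC and parental difference alone. Nothing in the labels says how often a line was cultured. These are bulk samples, in which fewer cells of a type and less RNA per cell cannot be told apart.

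Dividing cells need nucleotides, splicing factors, ribosomes and chaperones, and their genes are often co-regulated with growth. Adhesion to matrix is sensed through actin and the TEAD transcription factors with their YAP, TAZ and VGLL cofactors. Surface proteins, secreted ligands, lysosomes and exosomes are the means by which tumor cells exchange signals with their surroundings.

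The libraries held 22.4 to 36.1 M counted reads (M, mega) in H1703 and H1299 and 63.8 to 91.8 M in CHAGO and CALU. The series title calls the lines squamous. KRT5, a keratin that marks squamous carcinoma, had 0 reads in H1703 and H1299, whatever the state, and at most 0.391 CPM (read counts relative to the library's total, after TMM scaling) in the other 4. Other squamous markers were present. The 15 of them summed to between 168 and 800 CPM in TICs and between 103 and 490 CPM in parental cells. Of these, PERP averaged 252 and 176 CPM in the same order. KRT6A reached 20.3 CPM and DSG3 6.88 CPM in CHAGO TICs, and both had 0 reads in the other lines. TP63, a squamous lineage factor, stood at 0.225, 0, 36.2 and 45.2 CPM in TICs, against 0, 0, 4.26 and 3.05 CPM in parental cells, in the order H1703, H1299, CHAGO and CALU, the order of all 4-library values here (log2 fold change 3.66, standard error 1.20, edgeR adjusted p = 0.283). SOX2 stood at 3.38, 38.8, 5.57 and 0 CPM in TICs, against 0, 8.09, 17.03 and 0 CPM in parental cells (log2 fold change 1.26, standard error 1.59, edgeR adjusted p = 0.819), higher in H1703 and H1299 and lower in CHAGO. That fold change was −1.46 within CHAGO and CALU. The pluripotency gene NANOG had 0 reads in all 8 libraries, and PROM1, a surface marker used to sort TICs, had at most 1.09 CPM. Of 15 leukocyte markers, 7 had 0 reads in all 8 libraries, PTPRC reached at most 0.704 CPM and CD3E was at 0, while the summed level ran from 101 to 647 CPM in TICs and from 1.55 to 417 CPM in parental cells. CD68, a lysosomal protein, made up 647 CPM of the highest sum in TICs and 338 CPM of the highest in parental cells. The 11 endothelial markers summed to between 0.09001 and 51.02 CPM in TICs and between 0.0727 and 40.8 CPM in parental cells. The 11 fibroblast markers summed to between 0.969 and 3109 CPM in TICs and between 1.69 and 2636 CPM in parental cells, with the collagen gene COL1A1 at 1340.1 CPM in CALU TICs and 548 CPM in their parental cells. The part of the depth and of these markers in the results was not tested.

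PRKCI, the kinase knocked down elsewhere in the series, stood at 342, 199, 608 and 237 CPM in TICs, against 303, 309, 357 and 261 CPM in parental cells. It was higher in TICs of H1703 and CHAGO and lower in those of H1299 and CALU (log2 fold change 0.08, standard error 0.34, edgeR adjusted p = 0.957).

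Across 4 lines, 4 of 14008 genes were called at 0.05 by edgeR's quasi-likelihood test with Benjamini-Hochberg adjustment (0.0286% of those tested), of which 3 were higher in TICs (0.0214%) and 1 was lower (0.00714%). Those described here are KLHL24 and IDS, higher, and VGLL3, lower.

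KLHL24 encodes a substrate adaptor of cullin ubiquitin ligases. Its levels were 389.8, 366, 126 and 233 CPM in TICs, against 97.2, 98.5, 35.6 and 89.6 CPM in parental cells. All 4 TIC libraries lay above all 4 parental libraries, and the 4 differences ran from 1.38 in CALU to 2.003 in H1703 on the log2 scale. KLHL24 averaged 278 ± 123 CPM in TICs and 80.2 ± 30.04 CPM in parental cells (SD, n = 4 each; log2 fold change 1.78, standard error 0.19, edgeR adjusted p = 0.0149).

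IDS encodes iduronate 2-sulfatase, which removes sulfate from heparan and dermatan sulfate in lysosomes. It stood at 506, 231, 236 and 1054 CPM in TICs, against 201, 57.1, 87.4 and 399 CPM in parental cells. Levels differed more between lines than between states, and within each line the TIC library was the higher. IDS averaged 507 ± 387 CPM in TICs and 186 ± 155 CPM in parental cells (SD, n = 4 each; log2 fold change 1.54, standard error 0.18, edgeR adjusted p = 0.0212). A near copy of IDS lies beside it on the X chromosome, so the origin of its reads is uncertain.

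VGLL3, a cofactor that binds TEAD transcription factors, fell. It had 0, 3.07, 702 and 23.1 CPM in TICs, against 0, 26.3, 5501 and 130.3 CPM in parental cells. H1703 had no read in either state, so the difference rests on 3 lines, of which CHAGO held by far the most reads. The fit over all lines gave a log2 fold change of −2.85 (standard error 0.28, 7.23-fold lower, edgeR adjusted p = 0.0212).

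All 4 calls were lost without any 1 line, when the 8 libraries were fitted alone and within the pairs of lines of like depth. Within H1703 and H1299 the log2 fold changes were 1.97 (KLHL24), 1.70 (IDS) and −2.92 (VGLL3), and within CHAGO and CALU they were 1.59, 1.41 and −2.76 in the same order. The lowest edgeR adjusted p of these genes within a pair was 0.314. Each line with reads lay on the same side for these genes, so a split of the lines had to keep their direction. H1703 had no VGLL3 read in either state, so the VGLL3 value of that pair rests on H1299. Of single libraries, leaving out the TIC library of H1703, CHAGO or CALU or the parental library of H1299 left 0 genes called, and leaving out the TIC library of H1299 left 1.

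**Figure D1:**
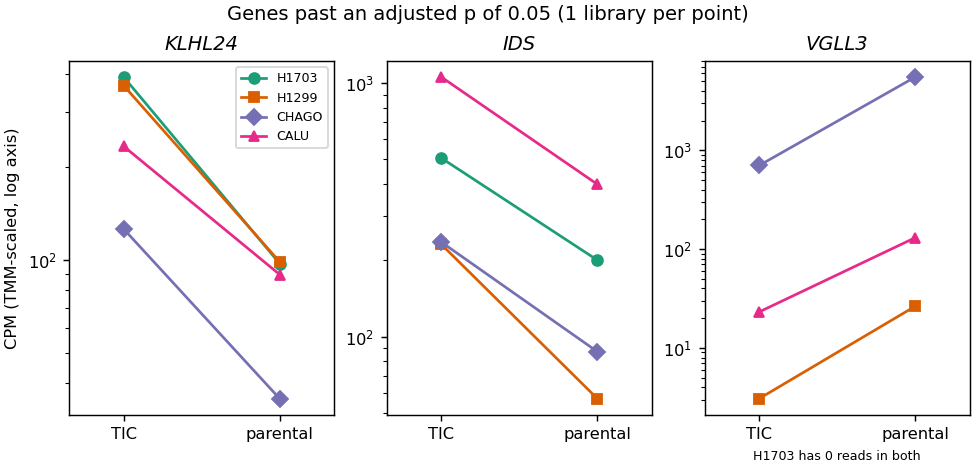
Levels in CPM (log axis) of 3 genes past an adjusted p of 0.05, with TICs on the left and parental cells on the right, and 1 line joining the 2 libraries of each cell line. KLHL24 and IDS slope down from TICs to parental cells in each line, and VGLL3 slopes up in the 3 lines with reads.

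Promoter windows of 250 bases before the start are shown for these 3 called genes, since these are the stretches of the genome at which a shared control would be looked for. They are from RefSeq (GRCh38.p14). KLHL24 lies at chr3:183635373-183635622 on the plus strand, IDS at chrX:149505307-149505556 on the minus strand and VGLL3 at chr3:86991150-86991399 on the minus strand, and capitals mark every match to the motifs named after them.
KLHL24: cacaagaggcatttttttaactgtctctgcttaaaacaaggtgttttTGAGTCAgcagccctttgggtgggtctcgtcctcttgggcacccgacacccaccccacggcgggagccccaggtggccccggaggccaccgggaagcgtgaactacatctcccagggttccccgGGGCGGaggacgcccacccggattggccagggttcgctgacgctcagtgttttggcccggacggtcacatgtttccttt
IDS: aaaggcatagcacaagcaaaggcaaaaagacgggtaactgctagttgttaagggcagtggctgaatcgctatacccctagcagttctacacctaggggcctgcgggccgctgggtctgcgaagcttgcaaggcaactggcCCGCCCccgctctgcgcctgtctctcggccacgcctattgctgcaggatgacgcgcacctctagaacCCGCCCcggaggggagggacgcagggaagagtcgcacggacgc
VGLL3: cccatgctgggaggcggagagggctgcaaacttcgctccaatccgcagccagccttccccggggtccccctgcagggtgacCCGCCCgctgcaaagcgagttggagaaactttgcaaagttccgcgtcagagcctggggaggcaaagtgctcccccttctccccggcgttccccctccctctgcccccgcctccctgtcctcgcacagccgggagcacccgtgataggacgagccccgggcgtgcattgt
The motifs, searched on both strands, were the AP-1 site TGANTCA, the TEAD core GGAATG, the forkhead core GTAAACA, the E-box CACGTG and the GC box GGGCGG bound by SP1. KLHL24 held 1 AP-1 match beginning 203 bases before the start and 1 GC box at 79 bases. IDS held 2 GC boxes, at 110 and 43 bases, and VGLL3 held 1, at 169 bases. Of 35116 promoters of the same length, 42.6% hold the GC box, 6.57% the AP-1 site, 11.9% the TEAD core, 2.98% the forkhead core and 6.34% the E-box. A match describes these letters only.

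The rest of the transcriptome was described line by line, where each difference compares 1 library with 1. No floor on the level was set beyond the filter. How many genes the lines would share by chance was not computed. At least a 4-fold difference separated TICs from parental cells for 2224 genes in H1703 (15.9% of those tested), 2627 in H1299 (18.8%), 2098 in CHAGO (15.0%) and 2144 in CALU (15.3%). Of all genes, 3240 passed 4-fold in 1 line alone, 1748 in 2 lines, 659 in 3 and 95 in 4. The genes past 4-fold on the same side in each of these lines were 1041 for 2 lines, 237 for 3 and 22 for 4. Correlations across genes between the differences of 2 lines ran from 0.0246 (H1299 and CHAGO) to 0.175 (H1299 and CALU); the points share the 2 libraries of each line and genes are not independent replicates. TICs were above parental cells in 4 of 4 lines for 1166 genes (8.32%) and below in 4 of 4 for 1256 (8.97%). The median log2 fold change over all genes was −0.02.

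**Figure D2:**
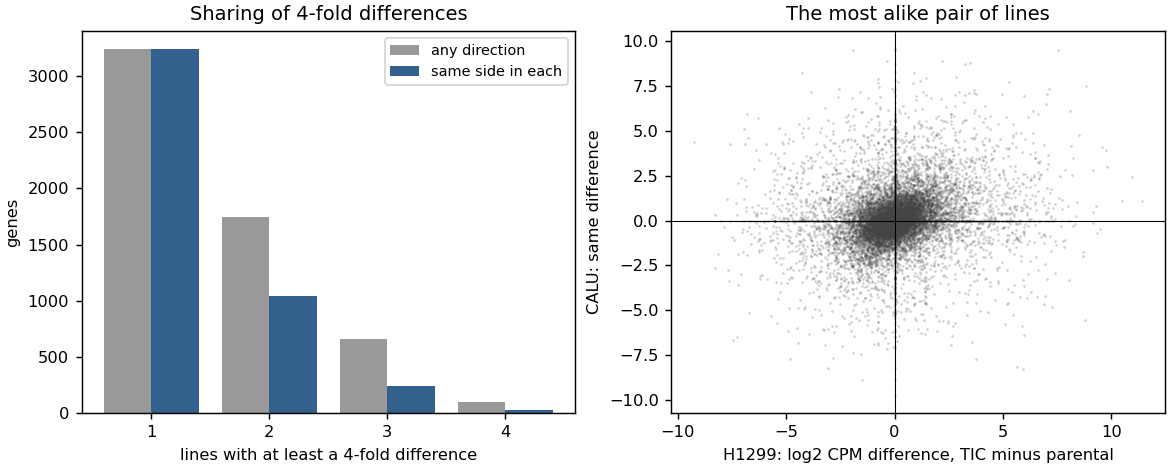
Left, number of genes (y axis) with at least a 4-fold difference between TICs and parental cells in 1, 2, 3 or 4 lines (x axis), in any direction (grey) and on the same side in each of those lines (blue). Right, log2 CPM difference, TIC minus parental, of each tested gene in H1299 (x axis) and CALU (y axis), the pair of lines with the highest correlation (0.175).

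Before adjustment, at an edgeR p under 0.05, 803 genes were higher in TICs (5.73%) and 849 lower (6.06%). DESeq2 called 324 genes higher (2.31%) and 185 lower (1.32%) at its adjusted p of 0.05. All 4 TIC libraries lay above all 4 parental libraries for 92 genes (0.657%) and below them for 128 (0.914%). At least a 2-fold difference in each of 4 lines was found for 111 genes on the higher side (0.792%) and 79 on the lower side (0.564%). Symbols of small nucleolar or micro RNA genes and their hosts, or of uncharacterised loci (beginning with SNOR, MIR, SNHG or LOC), made up 2 of the 111 on the higher side and 17 of the 79 on the lower side. Their share over all tested genes was not counted, so these numbers are no result about such genes. A mean log2 CPM of 3 or more was reached by 41 of the 111 and 14 of the 79. Near the 2-fold limit, S1PR2 had a weakest line of 1.0006 and ELFN2 just missed at 0.9989 on the log2 scale.

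Genes were then ordered by their weakest line, the smallest of the 4 differences where all lie on 1 side, among genes whose log2 CPM averaged 3 or more. Among the 12 highest were TGFB1, GPNMB, STC1, P4HA2, HTRA1, SAT1, SPRY2, SEL1L3, LRP1, CDKN1A and KLHL24. TGFB1, which encodes the growth factor TGF-beta 1, headed them at 42.5, 53.8, 10.2 and 10.6 CPM in TICs, against 9.999, 14.3, 1.695 and 2.59 CPM in parental cells. Its differences were close to each other, from 1.91 in H1299 to 2.57 in CHAGO on the log2 scale, and its level in CHAGO and CALU TICs was near that of H1703 parental cells (log2 fold change 2.17, standard error 0.39, edgeR adjusted p = 0.119). SAT1 encodes the enzyme that acetylates polyamines for export. It stood at 399, 245, 762 and 729 CPM in TICs, against 91.6, 82.8, 57.96 and 100.3 CPM in parental cells, so that each TIC library was above each parental library (log2 fold change 2.46, standard error 0.39, edgeR adjusted p = 0.0972). CDKN1A, the cyclin-dependent kinase inhibitor p21, stood at 56.1, 99.5, 41.6 and 41.8 CPM in TICs, against 8.18, 31.5, 2.96 and 15.7 CPM in parental cells, again with no overlap (log2 fold change 2.43, standard error 0.49, edgeR adjusted p = 0.159). 

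P4HA2 encodes a prolyl hydroxylase of collagen. It had 31.5, 53.1, 46.7 and 263 CPM in TICs, against 9.999, 6.14, 15.3 and 36.96 CPM in parental cells (log2 fold change 2.23, standard error 0.36, edgeR adjusted p = 0.1). LRP1, an endocytic receptor that also clears proteases and thrombospondin, had 38.6, 64.9, 7.57 and 395 CPM in TICs, against 14.1, 3.09, 1.76 and 58.8 CPM in parental cells. The widest difference for LRP1 was in H1299, where parental cells held little of it (log2 fold change 2.67, standard error 0.44, edgeR adjusted p = 0.1). SPRY2, a feedback inhibitor of receptor tyrosine kinase signalling, had 6.39, 78.1, 18.99 and 72.1 CPM in TICs, against 1.24, 28.03, 4.37 and 23.7 CPM in parental cells (log2 fold change 1.85, edgeR adjusted p = 0.125). SEL1L3, a membrane protein of the SEL1L family, had 25.6, 27.6, 35.2 and 87.3 CPM in TICs, against 9.31, 8.01, 5.401 and 28.04 CPM in parental cells (log2 fold change 1.85, edgeR adjusted p = 0.197).

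The remaining 3 had larger standard errors, from 0.78 to 1.39. GPNMB, a transmembrane glycoprotein of lysosomes and melanosomes, had 5.58, 26.2, 216 and 419.9 CPM in TICs, against 1.71, 3.72, 48.2 and 13.8 CPM in parental cells. Its difference was 4.93 on the log2 scale in CALU and 1.69 in H1703 (adjusted p = 0.294 in edgeR). The secreted hormone stanniocalcin, STC1, had 7.97, 367, 725 and 219 CPM in TICs, against 0, 109, 27.96 and 71.03 CPM in parental cells; H1703 parental cells had no read of it, and the edgeR adjusted p was 0.319. HTRA1, a secreted serine protease, had 41.1, 15.9, 1.05 and 158 CPM in TICs, against 13.8, 3.199, 0.18 and 37.2 CPM in parental cells, with little in CHAGO in either state (edgeR adjusted p = 0.316). Of these genes KLHL24 alone passed the edgeR threshold, whereas DESeq2 called all those named except STC1. The genes were picked from these same counts by their size in each line, so the DESeq2 calls are no separate support. DESeq2 called 73 of the 111 genes at least 2-fold higher in each line, and 2.31% of all tested genes as higher.

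TGF-beta is secreted in a latent form, cut by the protease furin and bound in the matrix to some proteins of the LTBP family. FURIN and genes of that family were looked at after their values were seen, so their levels are a description. LTBP2 is given as a family member only, not as a carrier of TGF-beta. FURIN had 14.4, 22.5, 19.8 and 21.4 CPM in TICs, against 3.38, 6.32, 4.22 and 8.84 CPM in parental cells, with no overlap of the states. LTBP2 had 12.4, 164, 7.79 and 96.5 CPM in TICs, against 1.02, 29.05, 1.64 and 45.5 CPM in parental cells. LTBP4 had 9.36, 26.1, 4.28 and 5.42 CPM in TICs, against 3.9997, 6.06, 0.15 and 0.739 CPM in parental cells. Both were higher in TICs in 4 of 4 lines, with edgeR adjusted p of 0.183 for LTBP2 and 0.207 for LTBP4, and FURIN was at 0.206. LTBP3, at 2.03, 6.13, 4.48 and 10.03 CPM in TICs, against 0.764, 0.442, 1.86 and 0.0346 CPM in parental cells, was also higher in each line (edgeR adjusted p = 0.567). LTBP1, of the same family, had 111, 125, 10.96 and 449 CPM in TICs, against 52.5, 21.1, 17.7 and 63.1 CPM in parental cells, lower in TICs of CHAGO alone (edgeR adjusted p = 0.641). THBS1 encodes thrombospondin 1, an activator of latent TGF-beta, and was on the opposite side.

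**Figure D3:**
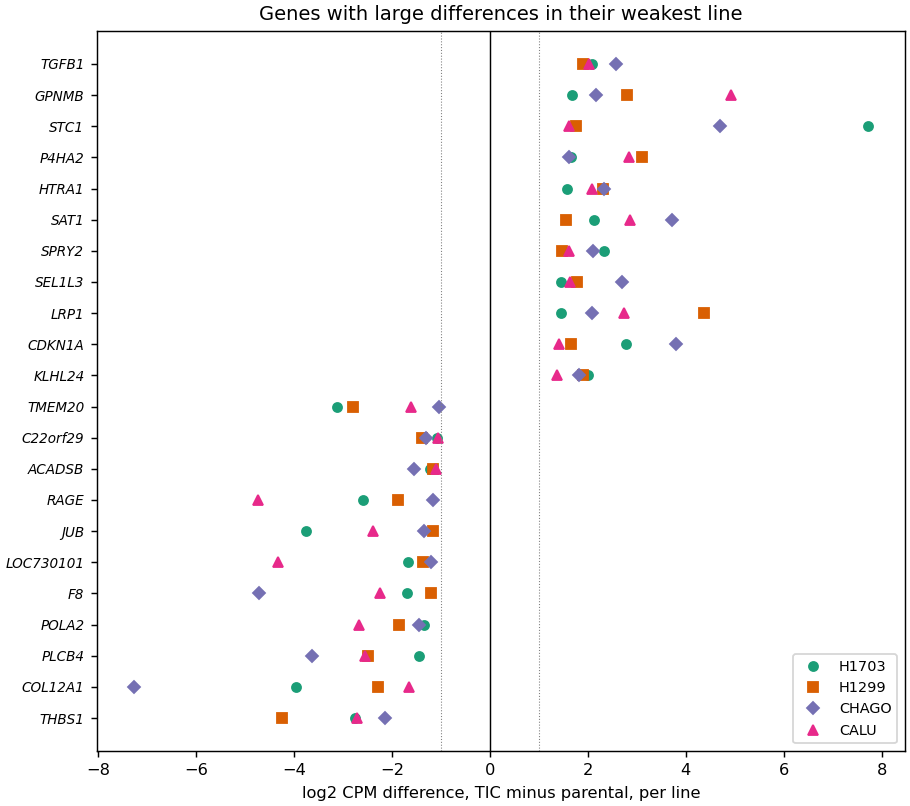
Difference in log2 CPM, TIC minus parental with a prior count of 2 (x axis), in each of 4 lines (symbols) for 11 of the 12 genes on each side ordered by weakest line; dotted lines mark a 2-fold difference. TGFB1 and KLHL24 hold their 4 lines close together, while STC1 and COL12A1 spread over more than 5 log2 units.

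Among the 12 lowest by the same order were THBS1, COL12A1, PLCB4, POLA2, F8, LOC730101, JUB, RAGE, ACADSB, C22orf29 and TMEM20, none of which passed the edgeR threshold. THBS1 had 0, 1.58, 39.6 and 217 CPM in TICs, against 0.218, 30.7, 175 and 1421 CPM in parental cells. H1703 held few reads of it, with none in TICs, and the other 3 lines were each more than 4-fold lower in TICs (log2 fold change −2.99, standard error 0.58, edgeR adjusted p = 0.142). COL12A1, a collagen that decorates fibrils, had 0.18, 19.05, 0.147 and 175 CPM in TICs, against 3.35, 93.5, 28.6 and 551 CPM in parental cells, with the widest difference in CHAGO (edgeR adjusted p = 0.281). PLCB4 encodes a phospholipase C activated by G proteins. It had 22.8, 33.3, 3.54 and 16.2 CPM in TICs, against 62.5, 188, 44.4 and 95.2 CPM in parental cells, each TIC library below each parental library (log2 fold change −2.61, standard error 0.39, edgeR adjusted p = 0.0945).

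POLA2 encodes a subunit of the DNA polymerase alpha and primase complex that starts new DNA strands. POLA2 had 7.79, 6.33, 12.9 and 4.66 CPM in TICs, against 19.9, 23.2, 35.6 and 30.04 CPM in parental cells (log2 fold change −1.79, standard error 0.55, edgeR adjusted p = 0.262). For POLA2 the highest TIC library lay below the lowest parental library. ACADSB, a mitochondrial acyl-CoA dehydrogenase of short and branched chains, showed the same lack of overlap at 16.6, 18.5, 10.6 and 17.6 CPM in TICs, against 38.7, 41.3, 31.2 and 37.6 CPM in parental cells (log2 fold change −1.29, edgeR adjusted p = 0.329).

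JUB, an older symbol of the LIM protein AJUBA found at cell junctions, had 6.39, 25.1, 3.74 and 21.1 CPM in TICs, against 87.4, 56.5, 9.59 and 110.1 CPM in parental cells (log2 fold change −2.01, edgeR adjusted p = 0.24). F8, coagulation factor VIII, had 2.75, 15.01, 0.257 and 32.3 CPM in TICs, against 8.98, 34.6, 7.74 and 154 CPM in parental cells (log2 fold change −2.29, edgeR adjusted p = 0.197). The symbol RAGE stands in this table for the kinase now called MOK, not for the receptor AGER. It had 1.67, 16.2, 1.86 and 2.72 CPM in TICs, against 10.2, 59.6, 4.19 and 73.6 CPM in parental cells (edgeR adjusted p = 0.276). TMEM20, now SLC35G1, had 12.96, 5.81, 11.7 and 3.11 CPM in TICs, against 113, 40.7, 24.3 and 9.55 CPM in parental cells, lower by the most in H1703 (edgeR adjusted p = 0.188). C22orf29 and LOC730101 had adjusted p values of 0.323 and 0.341 in edgeR.

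Gene groups were read as lists of a function or family, against 48.7% of all tested genes with a log2 fold change above 0. Over all tested genes, 5.73% were higher and 6.06% lower at p under 0.05 before adjustment in edgeR. DESeq2 called 2.31% higher and 1.32% lower. A list with 1 such gene before adjustment, as KLF and SP factors with 1 of 19, is near the share of all genes. The median took the opposite sign under at least 1 alternative for the lists of actin and myosin, annexins, autophagy, circadian clock, ephrins, glutathione, nuclear envelope, lipid droplet, mTORC1, N-glycosylation, nuclear receptor, TCA cycle and tubulin genes, whose direction is therefore not settled. The lists with most of their genes on the lower side were those of RNA processing, nuclear transport, protein turnover and biosynthesis, in which edgeR called no gene at 0.05. Of hnRNP and SR splicing factors, proteins that choose splice sites, 23 of 23 were below 0, 16 at p under 0.05 before adjustment, and 10 were called lower by DESeq2, with a median log2 fold change of −0.66. SRSF2 had 447, 247, 379.9 and 135 CPM in TICs, against 600.4, 504, 649 and 347 CPM in parental cells (log2 fold change −0.89, standard error 0.18, edgeR adjusted p = 0.159). HNRNPU, a nuclear matrix RNA-binding protein, had 1497, 1441, 1224 and 916 CPM in TICs, against 2054, 2094, 1979.8 and 1760.5 CPM in parental cells, with no overlap of the states (log2 fold change −0.66, standard error 0.14, edgeR adjusted p = 0.173). SRSF1 was at −0.87 ± 0.18 and HNRNPM at −0.98 ± 0.21 (log2 fold change ± standard error, as for all such pairs here; edgeR adjusted p = 0.173 and 0.183). The median of the list lay below 0 in each line, at −0.44, −0.83, −0.24 and −0.98 on the log2 scale.

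Of the snRNP and SF3 proteins that form the spliceosome core, 22 of 24 were below 0 (median −0.36, 5 at p under 0.05 before adjustment), among them the helicase SNRNP200 at −0.60 ± 0.17. All 24 of 24 nuclear pore and importin genes were below 0 (median −0.49, 7 at p under 0.05 before adjustment). The importins IPO5 and KPNB1 stood at −0.92 ± 0.26 and −0.75 ± 0.21, although IPO5 in CHAGO was as high in TICs, at 972 CPM, as in parental cells, at 933 CPM. Of translation initiation and elongation factors, 21 of 25 were below 0 (median −0.29, 7 at p under 0.05 before adjustment). EIF5A, which helps ribosomes past stalling sequences, had 82.3, 37.7, 73.8 and 43.9 CPM in TICs, against 152, 91.5, 96.7 and 84.5 CPM in parental cells, with no overlap of the states (edgeR adjusted p = 0.227).

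All 25 of 25 proteasome subunits were below 0 (median −0.34), 5 of them at p under 0.05 before adjustment. PSMC1, an ATPase of the 19S cap, had 6.53, 6.97, 9.42 and 5.28 CPM in TICs, against 17.9, 22.2, 17.99 and 10.4 CPM in parental cells and did not overlap between states (log2 fold change −1.25 ± 0.41, edgeR adjusted p = 0.283), and PSMD2 stood at −0.84 ± 0.27. The chaperonin, prefoldin and HSP90 list had 17 of 21 genes below 0 (median −0.47, 9 lower and 1 higher at p under 0.05 before adjustment). HSPD1, the mitochondrial chaperonin, had 768, 367, 1353 and 365 CPM in TICs, against 957, 993, 1747 and 688 CPM in parental cells (edgeR adjusted p = 0.223). CCT5 stood at −0.87 ± 0.28, and in CHAGO its TIC library was the higher, at 701 CPM, against 650.4 CPM in parental cells. The medians of both lists were above 0 in CHAGO, at 0.11 for the proteasome and 0.09 for the chaperonin list, and lowest in H1299, at −0.82 and −1.06.

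Nucleotide and one-carbon metabolism had the lowest medians among lists other than the cell type markers. Of purine and pyrimidine synthesis genes, 22 of 23 were below 0, 10 at p under 0.05 before adjustment and 5 called lower by DESeq2, with a median of −0.78. CTPS, the CTP synthase now called CTPS1, had 70.6, 68.9, 211 and 68.7 CPM in TICs, against 103, 125, 557 and 163 CPM in parental cells (log2 fold change −1.03, standard error 0.21, edgeR adjusted p = 0.159). PAICS of purine synthesis and the nucleoside diphosphate kinase NME1 stood at −0.91 ± 0.23 and −0.78 ± 0.20. The median lay below 0 in each line, at −0.43, −0.92, −0.25 and −0.93. Of serine, glycine and folate genes, 17 of 19 were below 0, 8 at p under 0.05 before adjustment and 6 called lower by DESeq2 (median −0.80). PSAT1, of serine synthesis, had 51.3, 66.4, 0 and 37.2 CPM in TICs, against 168, 466, 0 and 105 CPM in parental cells; CHAGO had no read in either state (log2 fold change −1.94, standard error 0.38, edgeR adjusted p = 0.184). MTHFD1, which interconverts folate one-carbon units, had 44.2, 42.9, 66.04 and 40.4 CPM in TICs, against 73.8, 106, 108 and 85.6 CPM in parental cells, with no overlap of the states (edgeR adjusted p = 0.188). AHCY, which clears S-adenosylhomocysteine, stood at −0.77 ± 0.19. 

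The 3 mitochondrial lists had medians below 0 in H1703, H1299 and CALU and above 0 in CHAGO. Of mitochondrial ribosomal proteins, 27 of 30 were below 0 (median −0.45, 3 at p under 0.05 before adjustment), with line medians of −0.46, −0.67, 0.06 and −0.50. MRPL1 had 7.83, 8.68, 38.8 and 16.7 CPM in TICs, against 21.3, 30.8, 56.7 and 43.6 CPM in parental cells (edgeR adjusted p = 0.237). Of TOM and TIM import genes, 19 of 24 were below 0 (median −0.41, 4 at p under 0.05 before adjustment), with DNAJC19 at −0.98 ± 0.28. Of TCA cycle genes, 18 of 24 were below 0 (median −0.19, 2 at p under 0.05 before adjustment), with the succinyl-CoA synthetase subunit SUCLA2 at −0.84 ± 0.31. The difference of CHAGO from the other lines was not tested.

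**Figure D4:**
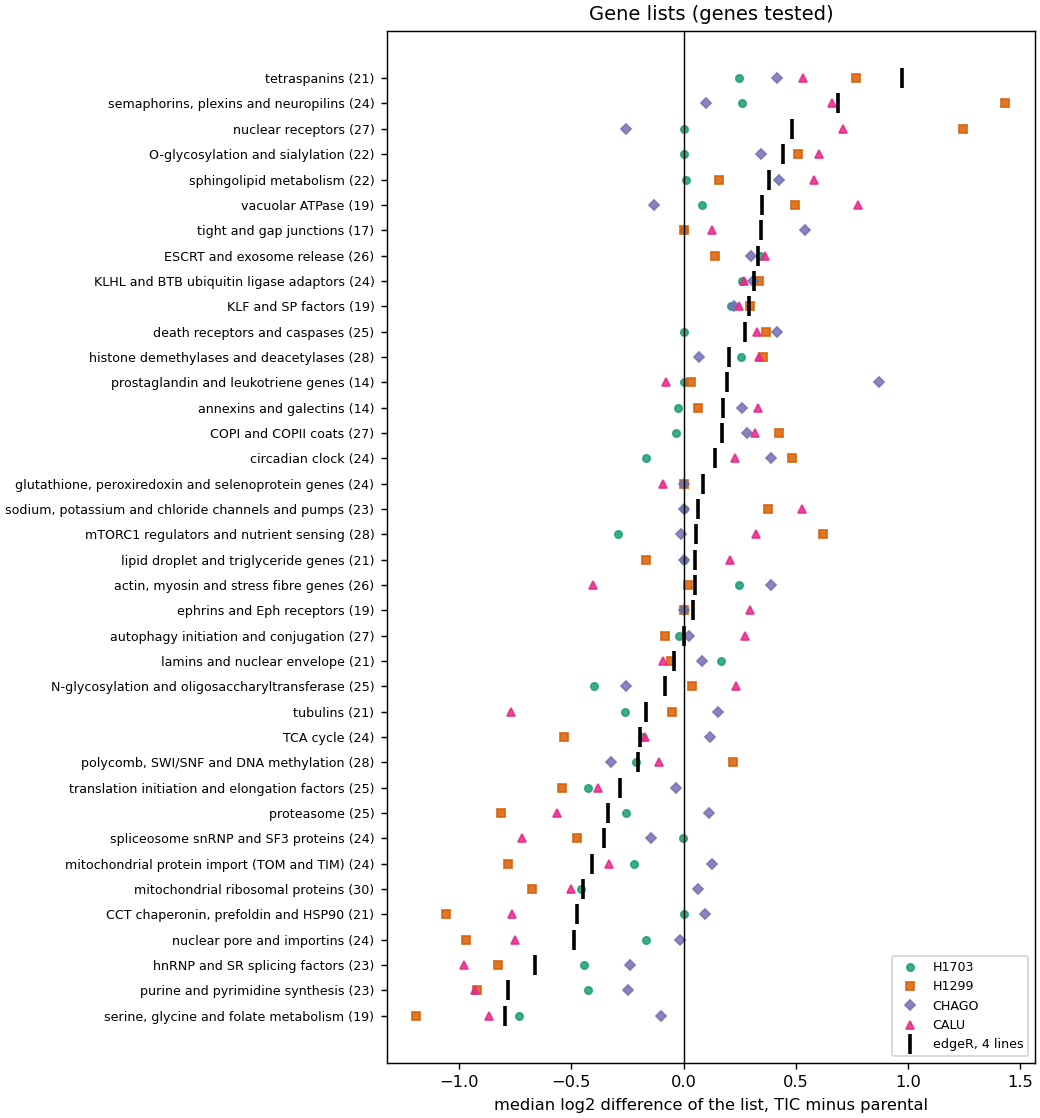
Median log2 difference, TIC minus parental (x axis), of gene lists other than cell type markers, with the number of genes tested in brackets; symbols are the 4 lines and black ticks the edgeR fit over all lines. The hnRNP and SR, nucleotide and one-carbon lists lie left of 0 in each line, and tetraspanin, KLHL, KLF and ESCRT lists lie right of 0 in each line.

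On the higher side, tetraspanins, small membrane proteins that organise receptors and mark exosomes, had 15 of 21 genes above 0, 6 at p under 0.05 before adjustment and 3 called higher by DESeq2 (median 0.97). The line medians were 0.25, 0.77, 0.42 and 0.53, each below the median of the fit. The fitted median ran from 0.42 to 1.13 over the alternatives. CD63, of late endosomes and exosomes, had 779.6, 3033, 441 and 3003 CPM in TICs, against 657, 920.2, 134 and 1042 CPM in parental cells. The difference was 0.25 on the log2 scale in H1703 and 1.53 to 1.72 in the other 3 lines (log2 fold change 1.29, standard error 0.25, edgeR adjusted p = 0.131). CD9 had 393, 194, 186 and 328 CPM in TICs, against 209.6, 109, 113 and 204 CPM in parental cells (edgeR adjusted p = 0.21), and TSPAN1 had 1.62, 36.8, 116 and 25.3 CPM in TICs, against 0.109, 2.08, 6.32 and 6.48 CPM in parental cells (edgeR adjusted p = 0.255). Genes of ESCRT and exosome release were above 0 for 18 of 26 (median 0.33, 4 at p under 0.05 before adjustment). RAB27B, a small GTPase that docks exosome-bearing compartments at the plasma membrane, had 0, 19.7, 46.5 and 188 CPM in TICs, against 0, 0.78, 5.596 and 12.95 CPM in parental cells; H1703 had no read in either state, and the other lines differed by 3.04 to 4.59 on the log2 scale (log2 fold change 3.87, standard error 0.49, edgeR adjusted p = 0.0945). SDCBP, the adaptor syntenin, had 162, 442, 181 and 486 CPM in TICs, against 84.4, 365, 57.8 and 247 CPM in parental cells (log2 fold change 0.96 ± 0.21, edgeR adjusted p = 0.183).

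Vesicle and organelle lists were mostly higher by small amounts. COPI and COPII coat genes were above 0 for 23 of 27 (median 0.17, 5 at p under 0.05 before adjustment), with the KDEL receptor KDELR1 at 0.79 ± 0.22 and the cargo adaptor SEC24D at 0.83 ± 0.30. Subunits of the vacuolar ATPase, the proton pump of lysosomes, were above 0 for 17 of 19 (median 0.35, 3 at p under 0.05 before adjustment), and in CHAGO their median was −0.13. ATP6V0E1 had 387, 496, 238 and 361 CPM in TICs, against 286, 127, 191 and 251 CPM in parental cells (edgeR adjusted p = 0.302). Sphingolipid genes were above 0 for 18 of 22 (median 0.38), 4 higher and 1 lower at p under 0.05 before adjustment. KDSR, an early enzyme of ceramide synthesis, had 394, 255, 165 and 318 CPM in TICs, against 116, 125, 78.1 and 185 CPM in parental cells (log2 fold change 1.16, standard error 0.21, edgeR adjusted p = 0.119). The acid ceramidase ASAH1 had 22.9, 118, 20.9 and 304 CPM in TICs, against 5.64, 24.7, 29.3 and 39.99 CPM in parental cells, lower in TICs of CHAGO alone (edgeR adjusted p = 0.26).

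O-glycosylation and sialylation genes were above 0 for 18 of 22 (median 0.44), with 1 in each direction at p under 0.05 before adjustment. GCNT3, which branches O-glycans, had 0, 8.33, 1.16 and 16.8 CPM in TICs, against 0, 0.702, 0 and 0 CPM in parental cells, so that parental cells held reads of it in H1299 alone (edgeR adjusted p = 0.293). The N-glycosylation list was split, with 14 of 25 below 0 (median −0.08, 3 higher and 1 lower at p under 0.05 before adjustment). MAN1A1, a Golgi mannosidase, had 0, 94.8, 160.1 and 185 CPM in TICs, against 0, 48.6, 68.1 and 74.3 CPM in parental cells (edgeR adjusted p = 0.206).

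Semaphorins, plexins and neuropilins, guidance ligands and their receptors, were above 0 for 16 of 24, 5 at p under 0.05 before adjustment and 4 called higher by DESeq2 (median 0.69). Among ligands, SEMA3A had 510.2, 67.3, 36.3 and 227 CPM in TICs, against 379, 18.6, 12.2 and 125 CPM in parental cells (log2 fold change 1.19, standard error 0.26, edgeR adjusted p = 0.183) and SEMA4B had 85.2, 14.9, 21.3 and 39.9 CPM in TICs, against 40.7, 0.988, 1.23 and 11.5 CPM in parental cells (edgeR adjusted p = 0.21). Of the receptors, the neuropilin NRP1 had 4.77, 25.6, 18.1 and 843 CPM in TICs, against 0.545, 1.53, 6.496 and 339 CPM in parental cells (log2 fold change 2.55, standard error 0.57, edgeR adjusted p = 0.188). NRP2 had 0, 2.36, 26.1 and 401 CPM in TICs, against 0, 1.07, 2.24 and 145 CPM in parental cells, with no read in H1703 (edgeR adjusted p = 0.233). The list's median was highest in H1299, at 1.43, and lowest in CHAGO, at 0.10. Ephrins and their receptors were above 0 for 10 of 19 (median 0.04, 1 at p under 0.05 before adjustment), with EFNA5 at 0.56 ± 0.19.

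Tight and gap junction genes were above 0 for 10 of 17 (median 0.34, 3 at p under 0.05 before adjustment). The connexin GJB2 had 21.2, 2.68, 4.42 and 5.24 CPM in TICs, against 0.0364, 0, 5.09 and 0.0577 CPM in parental cells, higher in TICs of 3 lines and not of CHAGO (edgeR adjusted p = 0.297), and CLDN12 stood at 0.77 ± 0.27. Actin, myosin and stress fibre genes were above 0 for 16 of 26 (median 0.05), while the 2 at p under 0.05 before adjustment were lower, profilin PFN1 at −0.58 ± 0.21 and tropomyosin TPM1 at −1.15 ± 0.43. Tubulins were below 0 for 11 of 21 (median −0.17, 1 at p under 0.05 before adjustment). TUBA1B had 2534, 1593, 3650.3 and 1347 CPM in TICs, against 3206, 2909, 3287 and 7197 CPM in parental cells, lower in TICs of 3 lines (edgeR adjusted p = 0.357). Channels and pumps were above 0 for 13 of 23 (median 0.06, 3 at p under 0.05 before adjustment), with the calcium-activated potassium channel KCNN4 at 2.11 ± 0.77. Annexins and galectins were above 0 for 9 of 14 (median 0.18, none at p under 0.05 before adjustment, 0 called by edgeR and by DESeq2). LGALS3BP among them had 3.38, 43.1, 6.704 and 151 CPM in TICs, against 0.945, 0.988, 6.796 and 63.4 CPM in parental cells.

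Among regulators, the KLHL and BTB adaptors that include KLHL24 were above 0 for 18 of 24 (median 0.31), with 1 called higher and 2 at p under 0.05 before adjustment. Besides KLHL24 that was KLHL28, at 51.5, 39.9, 68.2 and 68.2 CPM in TICs, against 8.25, 12.95, 78.8 and 19.4 CPM in parental cells (edgeR adjusted p = 0.258). KLF and SP factors were above 0 for 14 of 19 (median 0.29, 1 at p under 0.05 before adjustment), with KLF9 at 0.89 ± 0.38. Nuclear receptors were above 0 for 17 of 27 (median 0.48, 3 at p under 0.05 before adjustment), with the retinoic acid receptor RARG at 1.30 ± 0.50 and PPARA, a fatty acid sensor, at 1.24 ± 0.51. Their line medians spread from −0.26 in CHAGO to 1.25 in H1299.

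Circadian clock genes were above 0 for 14 of 24 (median 0.14), 4 higher and 1 lower at p under 0.05 before adjustment. BHLHE40, a repressor of CLOCK and BMAL1 activity, had 1316, 139, 354 and 808 CPM in TICs, against 367, 17.97, 160.5 and 61.9 CPM in parental cells (log2 fold change 2.26, standard error 0.46, edgeR adjusted p = 0.159). RORA had 13.7, 90.4, 12.2 and 68.4 CPM in TICs, against 3.75, 5.799, 10.2 and 15.7 CPM in parental cells (edgeR adjusted p = 0.238). TIMELESS, whose best known role in mammals is at the replication fork, had 34.1, 48.8, 85.8 and 17.98 CPM in TICs, against 121, 136, 69.2 and 62.9 CPM in parental cells, lower in TICs of each line but CHAGO (edgeR adjusted p = 0.24). The time of harvest is not given in the labels.

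Death receptor and caspase genes were above 0 for 16 of 25 (median 0.27, 5 at p under 0.05 before adjustment, 4 called higher by DESeq2). CFLAR, an inhibitor of caspase-8 activation, had 172, 155, 123 and 122 CPM in TICs, against 61.4, 102, 62.4 and 97.4 CPM in parental cells, with no overlap of the states (edgeR adjusted p = 0.242). The TRAIL receptor TNFRSF10B had 32.6, 54.5, 64.5 and 68.04 CPM in TICs, against 12.8, 50.9, 21.3 and 30.6 CPM in parental cells (edgeR adjusted p = 0.272). Histone demethylases and deacetylases were above 0 for 18 of 28 (median 0.20, 3 at p under 0.05 before adjustment), with JHDM1D, now KDM7A, at 1.65 ± 0.59. Polycomb, SWI/SNF and DNA methylation genes were below 0 for 19 of 28 (median −0.20, 3 lower and 1 higher at p under 0.05 before adjustment). The methyltransferase EZH2 had 54.05, 59.8, 288 and 26.3 CPM in TICs, against 69.3, 239, 399 and 119.6 CPM in parental cells (edgeR adjusted p = 0.225). JARID2, which recruits the same complex, was on the other side, at 51.7, 42.4, 58.05 and 178 CPM in TICs, against 19.9, 28.8, 26.2 and 67.6 CPM in parental cells (edgeR adjusted p = 0.227). Nuclear envelope genes were below 0 for 12 of 21 (median −0.04), 4 lower and 3 higher at p under 0.05 before adjustment. LMNB1, the B-type lamin, stood at −1.25 ± 0.35 and LEMD3, an inner membrane protein that binds SMADs, at 0.61 ± 0.19.

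Nutrient-sensing genes around mTORC1 were above 0 for 15 of 28 (median 0.05), 4 higher and 1 lower at p under 0.05 before adjustment. DDIT4, a stress-induced inhibitor of mTORC1, had 70.6, 199, 113 and 97.9 CPM in TICs, against 34.2, 95.02, 31.99 and 9.46 CPM in parental cells (log2 fold change 1.73, standard error 0.39, edgeR adjusted p = 0.188), and the folliculin partner FNIP1 stood at 0.67 ± 0.19. Autophagy genes were above 0 for 14 of 27 (median 0.00, 1 in each direction at p under 0.05 before adjustment). ATG9A, the lipid scramblase of early autophagosomes, had 64.7, 24.3, 40.97 and 29.7 CPM in TICs, against 20.4, 9.34, 16.6 and 19.8 CPM in parental cells, with no overlap of the states (edgeR adjusted p = 0.197), and ATG3, an enzyme of LC3 conjugation, stood at −0.72 ± 0.22. Lipid droplet and triglyceride genes were above 0 for 11 of 21 (median 0.05, 3 at p under 0.05 before adjustment). PLIN2, a lipid droplet coat protein, had 0, 105, 15.8 and 75.7 CPM in TICs, against 0, 33.9, 3.23 and 24.4 CPM in parental cells, with no read in H1703 (log2 fold change 1.83, standard error 0.32, edgeR adjusted p = 0.142). AGPAT2, which makes phosphatidic acid, had 3.78, 1.81, 2.61 and 1.49 CPM in TICs, against 0.545, 0.104, 0.915 and 0.208 CPM in parental cells, low everywhere and yet without overlap (edgeR adjusted p = 0.293).

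Glutathione, peroxiredoxin and selenoprotein genes were above 0 for 12 of 24 (median 0.09), with 2 in each direction at p under 0.05 before adjustment. Mitochondrial PRDX3 stood at −0.97 ± 0.22 and PRDX5 at 0.74 ± 0.20. Prostaglandin and leukotriene genes were above 0 for 10 of 14 (median 0.19), with 1 in each direction at p under 0.05 before adjustment. PTGES, the inducible prostaglandin E synthase, had 0.045, 9.17, 57.4 and 169 CPM in TICs, against 0.0727, 0.078, 10.3 and 34.9 CPM in parental cells (edgeR adjusted p = 0.237), and PTGES3, a cytosolic form that also serves HSP90, stood at −0.66 ± 0.17.

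No cell type marker passed the edgeR threshold. Squamous markers were above 0 for 5 of 6 tested (median 0.47, 1 at p under 0.05 before adjustment), adenocarcinoma markers for 4 of 6 (0.93) and stem and TIC surface markers for 4 of 7 (0.39). Leukocyte, endothelial and fibroblast markers were above 0 for 1 of 3, 0 of 3 and 2 of 7 (medians −0.05, −1.62 and −0.92). Over the alternatives the leukocyte median ran from −5.54 to 1.49 and the fibroblast median from −1.74 to 1.24, so neither has a settled direction, and that of the stem and TIC surface markers ran from −0.47 to 0.59. None of the last 5 lists had a gene at p under 0.05 before adjustment or a call by edgeR or DESeq2. CD44, a surface marker of TICs, was high in H1299, at 987 CPM in TICs and 694 CPM in parental cells, and in CALU, at 4388 and 2143 CPM in the same order. It was at or near 0 reads in H1703 and CHAGO.

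The widest differences within each line compare 1 library with 1 and have no replicate check. Of the 32 genes named for them, 21 differed by more than 3 log2 units in another line too, on the same or the opposite side, and 6 lay on the same side in all 4 lines. Of all tested genes, 8.32% lay above and 8.97% below in all 4 lines, and the share past 3 log2 units was not counted. Levels outside a gene's own line were low for some of the 21, as RNF165 at most 1.17 CPM, and not for others, as IL8 at up to 114 CPM. Between 36 and 101 genes a line had at least 100 reads in TICs and none in parental cells, and between 42 and 93 the reverse. A limit of 100 reads is a lower level in deeper libraries. The lowest counts, 36 and 42, were those of H1703, the line with the fewest reads. In H1299 the interferon-induced genes OAS2, IFI44L and OAS1 were at 3250, 2315 and 1709 reads in TICs but at 0 in parental cells, at least 1345-fold, 958-fold and 707-fold higher against a limit of 3 reads in that library. In the other lines OAS2 differed by −1.54 in H1703, 4.14 in CHAGO and 1.09 in CALU on the log2 scale. The H1703 value equals that of CSF1R, which averaged 0.192 CPM in parental cells. It therefore rests on few reads, and the side of OAS2 in H1703 is not settled. IFI44L had no read in either state of H1703 and differed by −2.61 in CHAGO and 2.43 in CALU. OAS1 was on the higher side throughout, by 3.68, 0.62 and 1.08 in H1703, CHAGO and CALU. Matrix metalloproteinase MMP2 had 1041 reads in H1299 TICs and 0 in parental cells, and AQP3, a water and glycerol channel, had 0 in TICs and 898 in parental cells.

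In H1703, ALPK3 and RNF165 were at 858 and 531 reads in TICs but at 0 in parental cells. EPS8, a substrate of EGFR signalling, had 1065 reads in TICs and 1 in parental cells, and CLU, the chaperone clusterin, had 1415 and 2. ITGAM, an integrin of myeloid cells, had 0 reads in TICs and 2169 in parental cells, and in CHAGO it was on the other side by 6.16 on the log2 scale. Its level outside H1703 was at most 2.68 CPM. The transcription factor MYB had 0 reads in TICs and 942 in parental cells, PHLDB2 0 and 569, and DPF1 0 and 562. DPF1 was below 0 in the other 3 lines as well, by −5.32 to −0.63 on the log2 scale.

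In CHAGO, LOC100507127 had 8592 reads in TICs and 0 in parental cells, the lipase LIPG 5356 and 1, and CD68 7936 and 6. IL8, the chemokine now called CXCL8, had 2462 reads in TICs and 0 in parental cells. It was also higher in TICs of the other lines, by 2.61 to 6.87 on the log2 scale. COL12A1 had 12 reads in TICs and 1905 in parental cells, LRP2 had 58 and 4397, PLEKHG4B had 52 and 2100, and LOC344595 had 47 and 1313.

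In CALU, SIRPB1, the matrix calcification inhibitor MGP and ceruloplasmin (CP) were at 2439, 2349 and 2299 reads in TICs but at 0 in parental cells, and the fatty acid receptor CD36 had 3026 and 1. MGP was higher in TICs of the other 3 lines too, by 1.75 to 7.55 on the log2 scale, at levels of at most 7.07 CPM there. FLG, filaggrin of cornified epithelium, had 9 reads in TICs and 11018 in parental cells. ELOVL2 had 1 and 2065, ADAMTS5 had 81 and 9792, and SEMA3E had 65 and 4671. ADAMTS5 differed as widely in CHAGO, by −6.82 on the log2 scale, and on the other side in H1703 and H1299, by 5.04 and 3.59. Its level in those other lines was at most 4.25 CPM, against 113 CPM in CALU parental cells, so these values lie near the floor.

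**Figure D5:**
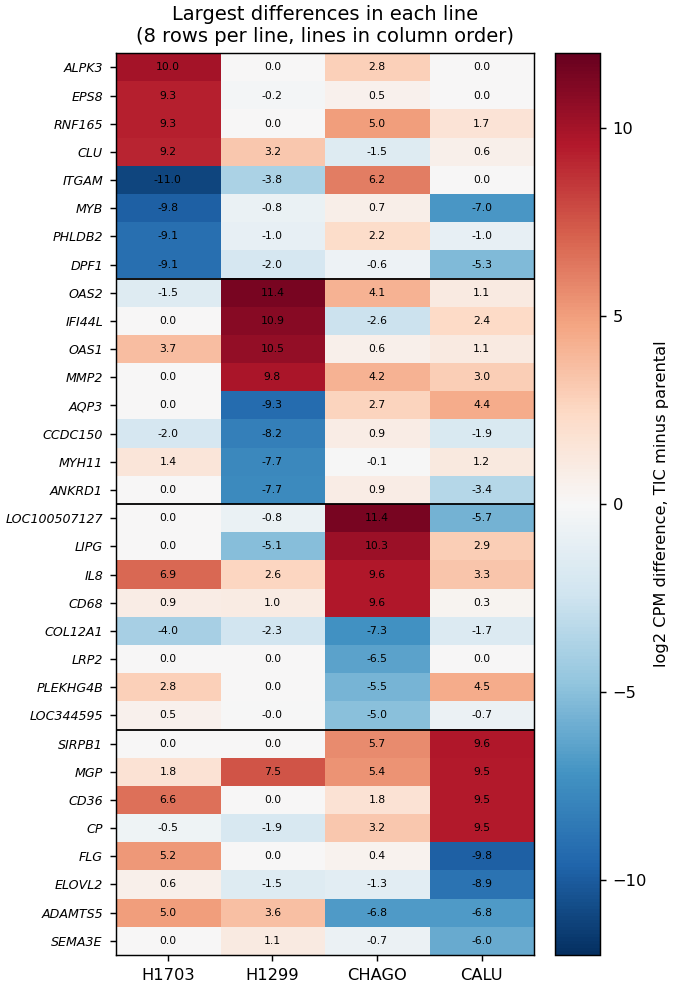
Log2 CPM difference, TIC minus parental with a prior count of 2 (colour and printed value), of the 4 genes highest and the 4 lowest in each line (rows, in blocks of 8) across the 4 lines (columns). Of the 32 rows, 21 pass 3 log2 units in another column as well as in their own block's line, on either side and some at low levels there. OAS1, IL8, CD68 and MGP are positive in all 4 columns, and DPF1 and COL12A1 negative in all 4.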

How the data were processed

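Extraction used Qiagen RNeasy and library preparation NuGEN reagents, per the labels' protocols. CASAVA 1.4, TopHat 1.4 and HTSeq 0.5.3p3 with build hg19 are named in the submitters' processing notes, with no role given. The deposited table gives whole read counts per gene, per the file headers. Mode-normalized values, a score that the authors derived from these counts with 1 factor per library, come from another deposited table and were used in an alternative.

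Genes were filtered with edgeR 4.0.16 (filterByExpr), TMM-scaled and fitted with a robust quasi-likelihood model with terms for state and line on all 12 libraries (6 residual degrees of freedom, biological coefficient of variation 0.699). Tests were two-sided with Benjamini-Hochberg adjustment over 14008 genes at 0.05, in R 4.3.3. Per-line differences are of log2 CPM with a prior count of 2. DESeq2 1.42.0 and limma 3.58.1 served as alternatives. Libraries were paired by the line in the labels. After removing state means, the correlation across genes was 0.553 to 0.713 between the TIC and parental library of a line (4 pairs) and −0.408 to −0.0601 otherwise (12 pairs). Removing the state means itself pushes the values between different lines below 0, so their sign is no support for the pairing. Limits of detection are 3 reads and cover counting error only.

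Named genes are the called ones, 12 on each side by weakest line (mean log2 CPM at least 3), up to 4 of smallest p per list, 4 on each side per line (mean at least 10 CPM), PRKCI and SOX2. S1PR2 and ELFN2 mark the 2-fold limit, and FURIN, LTBP1 to LTBP4 and the marker genes were named after their values were seen. The 45 lists hold 1036 symbols, of which 1012 matched as written, 23 through an older symbol and 1 not at all. Some genes and 1 list are not reported here. The comparison and the lists were chosen with earlier results of these data known. In the table, 26 symbols had become dates and were left out of the named genes. Parental cells with PRKCI knockdown, mentioned in the design, were not analysed here. No hg19 genome was used, so genes are given by symbol.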

Additional observations from a re-analysis of the deposited data

Results flagged for a closer look

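In each of 146 sets of 4 line differences (genes and lists), the highest or lowest line was compared with the others by Dixon's 95% limit. Chance alone passes it for about 1 set in 20, and 9 passed. IDS was 2.02 higher on the log2 scale in TICs of H1299, against 1.33 to 1.43 in the other 3 lines. LOC730101 was lower in TICs of CALU, with a difference of −4.33, against −1.67 to −1.19 in the others. SUCLA2 had −1.47 in H1299 and −0.72 to −0.58 in the others. TIMELESS had 0.31 in CHAGO and −1.82 to −1.48 in the others, the one case here of a gene whose line stood on the opposite side. CD63 had 0.25 in H1703 and 1.53 to 1.72 in the others. ATP6V0E1 had 1.97 in H1299 and 0.32 to 0.53 in the others.

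Among list medians, prostaglandin and leukotriene genes had 0.87 in CHAGO and −0.08 to 0.03 in the other lines. Glutathione, peroxiredoxin and selenoprotein genes had −0.092 in CALU and 0.00 in the others. Ephrins and Eph receptors had 0.30 in CALU and 0 in the others. Where the other 3 lines are tied at 0, as for ephrins, any nonzero value in the remaining line passes the limit, and the glutathione list is nearly such a case, so neither marks CALU as unusual.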

How the results depend on the processing

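The count of 4 genes changed in TICs was also 4 with DESeq2 size factors, library totals, a filter of 1 CPM in 4 libraries, no filter, or no robust estimation. It was 0 with no replicate block (339 at an unadjusted p under 0.05), 0 in the 8 libraries alone (1188), 0 within H1703 and H1299 (1207) and 0 within CHAGO and CALU (910). Leaving out 1 line gave 0 each time (1113 to 1725 at an unadjusted p under 0.05). Leaving out 1 library gave 0 to 5, with 0 without the TIC library of H1703, CHAGO or CALU or the parental library of H1299 (1212 to 1601), and 1 without the TIC library of H1299. DESeq2 gave 509, limma voom 170, limma on mode-normalized values 43, an adjusted p of 0.10 gave 11 and an unadjusted p under 0.05 gave 1652. The cause of these differences was not tested. The 190 genes with at least a 2-fold difference in each line became 208 with a prior count of 0.5, 192 with library totals, 487 at 1.5-fold, 54 at 3-fold and 489, 417, 575 and 443 without H1703, H1299, CHAGO and CALU in turn. The log2 fold change of PRKCI was reversed without CHAGO (−0.21), without TIC replicate 3 (CHAGO, −0.37), without parental replicate 1 (H1703, −0.048) and within H1703 and H1299 (−0.24), and that of SOX2 within CHAGO and CALU (−1.46); the other 99 of 101 genes kept their sign. Of the 45 list medians, 28 kept their sign under every alternative, and 152 of the 1080 recomputed medians moved by more than 1 SD between lines. Of 24 alternatives, the sign was opposite under 13 for leukocyte markers, 10 for fibroblast markers, 9 for actin and myosin genes, 7 for mTORC1 and for lipid droplet genes, 6 for stem markers, 5 for N-glycosylation, 4 for autophagy, 3 for circadian clock and for glutathione genes, 2 for ephrins, and 1 for annexin, nuclear envelope, nuclear receptor, TCA cycle and tubulin genes. Precision is limited by 4 lines and 1 library per line and state, and by a depth that is lower in H1703 and H1299, so a difference missing the threshold is not shown to be absent.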
